A study of Mus musculus with 21 samples.

Results

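The genes described here are the metallothioneins Mt1, Mt2 and Mt4, the transcription factor gene Mtf1 and the zinc exporter genes Slc30a1, Slc30a2, Slc30a4, Slc30a5, Slc30a6 and Slc30a7. They are 10 of the 55414 genes in the deposited count table, each was found there as a single row by its symbol, and all 10 passed the filter on low counts that left 13070 genes to test. The libraries came from Paneth cells, the granule-filled secretory cells at the base of the small intestinal crypts, purified from mice by FACS. C57BL/6J is the strain named in the methods of the study. For 7 weeks the animals drank Milli-Q (purified) water or water with ZnSO4, at 200 mM as the labels state it. They were specific pathogen free (SPF) mice with 3 libraries on Milli-Q and 3 on zinc water, SPF mice given broad-spectrum antibiotics over the last 3 weeks with 4 libraries on each water, and germ-free mice with 3 libraries on Milli-Q and 4 on zinc water. No genotype or age distinguishes the groups in the labels, and antibiotics were given only in the 2 antibiotics groups. The replicates are called biological in the design text.

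Metallothioneins are small cysteine-rich proteins that bind zinc and other metals in the cell. MTF-1, the product of Mtf1, is a zinc finger protein that senses free zinc and binds metal response elements in the promoters of Mt1, Mt2 and Slc30a1. The Slc30a (ZnT) proteins move zinc out of the cytosol, either across the plasma membrane or into vesicles and the secretory pathway, and Paneth cells are known for their zinc-rich secretory granules.

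The sequences that MTF-1 recognises were searched for near the starts of these genes, and what was found is given before the values. The core of a metal response element was searched as TGCACNC or TGCGCNC on both strands in the 250 bases before every annotated transcript start (GENCODE M39 on GRCm39, the build the submitters name as mm39). Of 21712 protein-coding genes, 46.1% held at least 1 core before some start, 14.7% held 2 or more before a single start, 1.03% held 4 or more and 0.29% held 5 or more. Genes had a median of 5 annotated starts, and a gene with many starts has more windows to match. Before the canonical start alone, 21.9% of genes held at least 1 core and 4.82% held 2 or more. Mt1 had 5 cores before a single start, the most of the 10 genes, and Mt2 had 4. Slc30a1, Slc30a2 and Slc30a4 had 2 each, Mt4 and Slc30a5 had 1 each, and Mtf1, Slc30a6 and Slc30a7 had 0 in these windows. Counted before the canonical start alone, Mt2 had 2, Mt1, Mt4 and Slc30a1 had 1 each, and the others had 0. Over all starts, Slc30a1 and Slc30a2 each held 3 distinct cores, Slc30a4 held 2 and Slc30a5 held 1. The sites of Mt1, Mt2, Mt4 and Slc30a1 are printed below, and those of Slc30a2, Slc30a4 and Slc30a5 are not. Each is given in the direction in which the core reads, with the 7 bases of the core in capitals and 10 bases on each side.
Mt1 site a, chr8:94905684-94905710, + strand: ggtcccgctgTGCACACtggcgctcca
Mt1 site b, chr8:94905709-94905735, + strand: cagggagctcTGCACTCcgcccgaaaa
Mt1 site c, chr8:94905727-94905753, + strand: gcccgaaaagTGCGCTCggctctgcca
Mt1 site d, chr8:94905791-94905817, - strand: gcaaagggttTGCACCCagcaggcggt
Mt1 site e, chr8:94905805-94905831, + strand: gcaaacccttTGCGCCCggactcgtcc
Mt2 site a, chr8:94899013-94899039, + strand: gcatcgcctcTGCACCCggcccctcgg
Mt2 site b, chr8:94899108-94899134, + strand: gcagacccttTGCGCTCagctcctttg
Mt2 site c, chr8:94899240-94899266, - strand: cccctgggccTGCGCACgacccgaatt
Mt2 site d, chr8:94899294-94899320, - strand: ccccgccgccTGCACACgccctttttc
Mt2 site e, chr8:94899313-94899339, - strand: gaaggcaccaTGCACGCgcccccgccg
Mt2 site f, chr8:94899347-94899373, + strand: gcggagctttTGCGCTCgacccaatac
Mt4 site, chr8:94863731-94863757, - strand: ccagacgcccTGCACACggcccagtga
Slc30a1 site a, chr1:191638556-191638582, + strand: tgcccaccgcTGCACGCggcccgcgcc
Slc30a1 site b, chr1:191638598-191638624, + strand: cgcccgccgcTGCACCCggccgcggcc
Slc30a1 site c, chr1:191638840-191638866, - strand: aactttgcttTGCACTCggaacccccg

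Mt1 (ENSMUSG00000031765, chromosome 8, 94905710 to 94906955, + strand) has annotated starts at 94905710 and 94905869. The cores of its sites b to e begin 150, 132, 68 and 54 bases before the second of these and lie in an untranslated exon of the longer transcripts. Mt2 (ENSMUSG00000031762, chromosome 8, 94898819 to 94900207, + strand) has its sites a and b in an intron and its sites c to f in an untranslated exon of the transcripts that start earlier. The single core of Mt4 (ENSMUSG00000031757, chromosome 8, 94863825 to 94865661, + strand) lies upstream of the gene, 84 bases before its start. Slc30a1 (ENSMUSG00000037434, chromosome 1, 191638808 to 191645361, + strand) has sites a and b upstream of the gene and site c in an untranslated exon. A match of these letters describes the sequence and does not show that a protein is bound there.

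Library totals ran from 9888174 to 16896714 counts. All 9 Paneth cell markers listed had counts in every library and summed to 194340 to 992770 TMM-scaled CPM. Such sums are not shares of a library's counts. The highest was in germ-free zinc replicate 1, whose TMM factor (scaling of the library, below) was 0.52. The summed level was 2556 to 7537 CPM for 8 goblet, 2338 to 5388 CPM for 7 stem and cycling, 3.76 to 19.0 CPM for 8 immune and 0 to 2.87 CPM for 7 stromal markers, and of these stromal markers Col1a2 and Col3a1 were at 0 in every library. Defa transcripts took 39.3 to 44.5% of counts in germ-free libraries and 24.1 to 36.4% in the others, and the TMM factors that scale the libraries were 0.52 to 0.83 in germ-free libraries and 1.00 to 1.49 in the others. All CPM values, here and below, are TMM-scaled (counts scaled to a common library size) unless stated. Log2 fold changes with SE come from the quasi-likelihood F-test of edgeR, fitted once to all 21 libraries. Adjusted p-values (Benjamini-Hochberg) are edgeR's over the 13070 genes tested unless DESeq2 is named, and a gene is called at 0.05. SPF zinc replicate 1 held 6228 Xist counts against at most 34 elsewhere, and SPF Milli-Q replicate 2 stood apart in Mt3 and Slc30a10, so counts that rest on SPF libraries were repeated without both.

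On zinc water the metallothioneins were higher in all 3 contexts, and the plasma membrane exporter gene Slc30a1 was higher after antibiotics and in germ-free mice. In SPF mice 3 of the 10 genes were called (Mt1, Mt2 and Mt4), all higher on zinc, against a background of 0.138% of all genes called in either direction and 0.0612% called higher. After antibiotics 6 were called, all higher (Mt1, Mt2, Mt4, Slc30a1, Slc30a2 and Slc30a5), against 21.7% in either direction and 10.2% higher. In germ-free mice 6 were called, all higher (Mt1, Mt2, Mt4, Slc30a1, Slc30a4 and Slc30a5), against 11.4% in either direction and 5.89% higher. Averaged over the contexts 7 were called, all higher (Mt1, Mt2, Mt4, Slc30a1, Slc30a2, Slc30a4 and Slc30a5), against 21.9% in either direction and 10.7% higher. Mtf1, Slc30a6 and Slc30a7 were not called in any of these. Mt4, with 0 to 4 counts in Milli-Q libraries, passed the filter on low counts only through its zinc libraries. Its place in these counts, in the medians below and in the counts of groups without overlap is therefore not independent of the filter. The median log2 fold change of the 10 genes, Mt4 included, was 0.44, 0.49 and 0.55 in SPF, antibiotics and germ-free mice. The median over all genes tested was -0.02, 0.01 and -0.02. Outside the metallothioneins the values ran from -0.09 to 0.72 in SPF mice, from 0.07 to 1.70 after antibiotics and from -0.20 to 1.26 in germ-free mice. With TMM scaling, the zinc and Milli-Q libraries did not overlap, with zinc higher, for 6 of the 10 genes in SPF mice (6.7% of all genes). The same held for 6 after antibiotics (13.9%) and for 5 in germ-free mice (5.74%). Without germ-free Milli-Q replicate 2, or without germ-free zinc replicate 3, the germ-free count was 2 (Mt1 and Mt2), in fits that called 5 of 13365 and 196 of 13074 genes in all. With the pair of SPF libraries that stand apart both left out, 2 genes (Mt1 and Mt2) were called in SPF mice and 6 (all those named except Slc30a2) over the contexts.

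Mt1 and Mt2 are the metallothioneins found in most tissues. In SPF mice, Mt1 stood at 48.9, 30.7 and 31.8 CPM on Milli-Q water (replicates 1 to 3) and at 461, 493 and 546 CPM on zinc water. After antibiotics, Mt1 stood at 49.8, 50.2, 31.9 and 45.8 CPM on Milli-Q water and at 718, 748, 1002 and 380 CPM on zinc water. In germ-free mice, Mt1 stood at 68.7, 129 and 101 CPM on Milli-Q water and at 511, 442, 1064 and 1097 CPM on zinc water. Every zinc library thus exceeded every Milli-Q library of any context, and the lowest antibiotics zinc library was replicate 4. The fitted fold changes of Mt1 were 13.5 in SPF, 16.0 after antibiotics and 7.83 in germ-free mice (log2 3.75 ± 0.36, 4.00 ± 0.32 and 2.97 ± 0.34, SE). The corresponding adjusted p-values (edgeR) were 1.87e-06, 3.43e-08 and 4.71e-05.

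Mt2 had lower levels than Mt1 on Milli-Q water and similar levels on zinc water. In the SPF groups it stood at 9.47, 11.4 and 4.55 CPM on Milli-Q and at 420, 484 and 580 CPM on zinc water. The antibiotics libraries held 21.3, 15.7, 8.55 and 14.1 CPM of Mt2 on Milli-Q water and 720, 858, 1039 and 370 CPM on zinc water. Germ-free libraries held 13.9, 52.7 and 31.4 CPM on Milli-Q water and 474, 435, 966 and 846 CPM on zinc water. Again no zinc library came near a Milli-Q library, and with TMM scaling antibiotics zinc replicate 4 was the lowest of all zinc libraries for both genes. With library totals only, germ-free zinc replicate 1 was the lowest, at 267 CPM of Mt1 and 247 CPM of Mt2. The fold changes were 58.5, 50.1 and 20.9 in SPF, antibiotics and germ-free mice (log2 5.87 ± 0.50, 5.65 ± 0.42 and 4.39 ± 0.45, SE), and edgeR gave adjusted p-values of 3.03e-07, 2.33e-08 and 1.47e-05. Across the 21 libraries log2 CPM of Mt1 and Mt2 had a Pearson correlation of 0.99, given as a description since the libraries share their water and context.

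**Figure D1:**
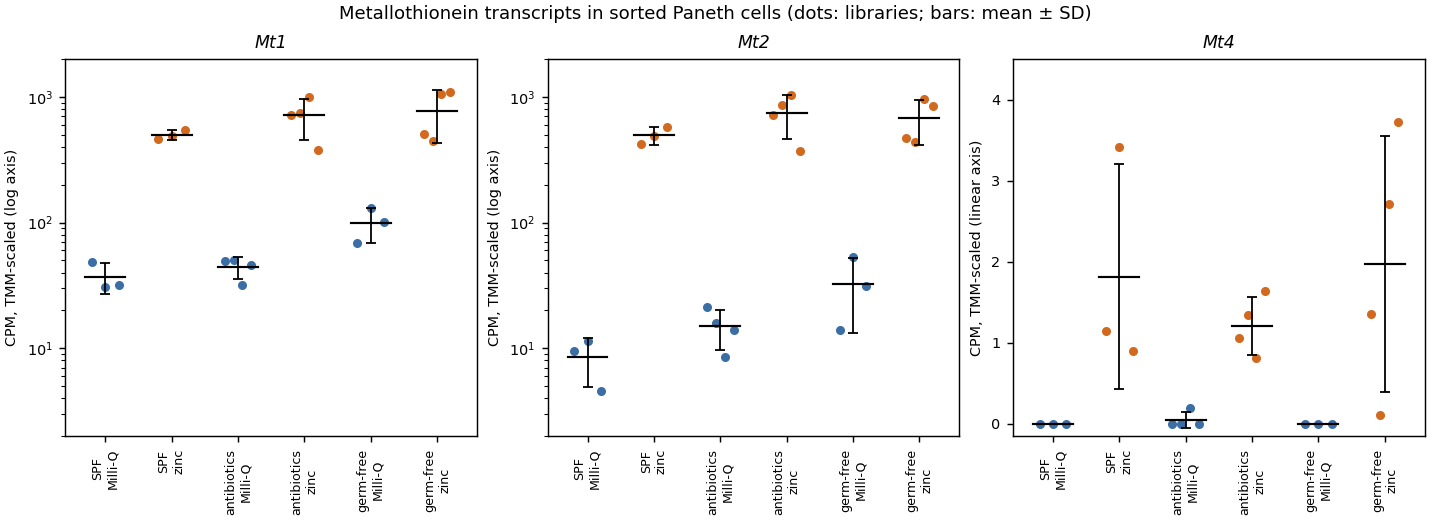
TMM-scaled CPM of Mt1 and Mt2 (log axes) and Mt4 (linear axis) in each library of the 6 groups, with blue dots for Milli-Q and orange dots for zinc water, and bars for the mean and SD of 3 or 4 libraries. The zinc libraries of Mt1 sit between 380 and 1097 CPM, above the highest Milli-Q library at 129 CPM, and Mt4 is at or near 0 on Milli-Q water.

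The ratio of the 2 genes within a library does not depend on how libraries are scaled, and it differed between the waters. There were 0.194, 0.373 and 0.143 Mt2 counts for each Mt1 count in the SPF groups on Milli-Q, and 0.910, 0.982 and 1.06 on zinc water. After antibiotics the ratio was 0.268 to 0.429 on Milli-Q and 0.974 to 1.15 on zinc water. In germ-free mice it was 0.202 to 0.407 on Milli-Q and 0.772 to 0.985 on zinc water. All 10 Milli-Q libraries were below all 11 zinc libraries, whatever the context. The canonical transcripts are 762 and 748 bases long, so the ratio per length is nearly the same. No stretch of 50 bases of the Mt1 or Mt4 transcript occurs in a transcript of another gene, and Mt1, Mt2 and Mt4 share none with each other. For Mt2, 62.9% of stretches are shared with Gm45774 or Gm61019, and the antisense partner Gm45774 held 0 to 4 counts in any library. The strand setting of the counting was not found in the sources used here, so reads of Mt2 and of an antisense transcript cannot be told apart.

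**Figure D2:**
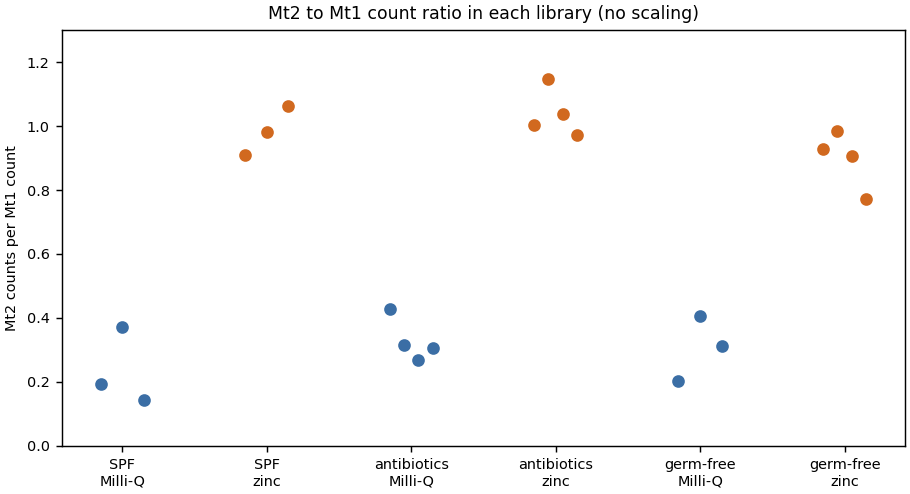
Number of Mt2 counts per Mt1 count in each library, on a linear axis from 0, with blue dots for Milli-Q and orange dots for zinc water. Milli-Q libraries lie between 0.143 and 0.429 and zinc libraries between 0.772 and 1.15.

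Mt4 is the metallothionein known from stratified squamous epithelium such as skin and tongue, and here it was counted almost only on zinc water. In SPF mice the 3 Milli-Q libraries held 0 counts each and the zinc libraries held 14, 48 and 12. After antibiotics the Milli-Q libraries held 0, 0, 4 and 0 counts and the zinc libraries 17, 26, 12 and 25. In germ-free mice the Milli-Q libraries held 0 counts each and the zinc libraries 7, 1, 23 and 35. The groups did not overlap in any context, with germ-free zinc replicate 2 lowest at a single count. Set against a floor of 3 counts over the 3 Milli-Q libraries, Mt4 was at least 34.1-fold higher on zinc water in SPF mice and at least 16.3-fold higher in germ-free mice. With library totals only, these bounds were 29.4 and 18.0. Zinc replicate 2 held 48 of the 74 SPF zinc counts, and without it the SPF bound was 18.5. Without Milli-Q replicate 2 or 3 the SPF bound was 21.9 or 21.3, and without Milli-Q replicate 3 or zinc replicate 4 the germ-free bound was 9.89 or 10.8. After antibiotics, where 4 counts were seen on Milli-Q water, the ratio of summed rates was 23.3. These bounds cover only the counting error of the Milli-Q groups at 0. Neither the counting error of the zinc groups nor the spread between their libraries enters them.

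Mt4 passed the filter on low counts only through its zinc libraries, so its p-values serve as a description. For Mt4 edgeR gave adjusted p-values of 0.0369 in SPF, 0.00498 in antibiotics and 0.0141 in germ-free mice. In SPF mice this call was lost (adjusted p up to 0.256) when any SPF library other than zinc replicate 3 was left out, and in germ-free mice without Milli-Q replicate 2 (0.101) or without zinc replicate 3 (0.0502). The call over all contexts held in the 29 alternative settings that tested Mt4 (adjusted p 8.37e-05, and at most 0.000319 without any single library). The filter of 10 counts in 10 libraries removed Mt4, so it was not tested there. On zinc water Mt4 remained far below its neighbours on chromosome 8: per kilobase of canonical transcript it stood at 4.54 ± 3.47 CPM in SPF mice (SD, n = 3), against 656 ± 56.2 CPM per kilobase of Mt1 and 661 ± 108 of Mt2. Mt3, which lies between Mt4 and Mt2 on the same chromosome, was not called over the contexts (log2 -0.08 ± 0.28, SE, adjusted p 0.872 by edgeR). Its zinc effect was -1.17 ± 0.53 in SPF mice and 1.11 ± 0.45 after antibiotics (SE, adjusted p 0.919 and 0.0768 by edgeR), and these differed by 2.27 ± 0.69 (SE, adjusted p 0.12 by edgeR). SPF Milli-Q replicate 2 held Mt3 at 7.76 CPM, against 1.02 and 1.31 CPM in replicates 1 and 3 and 0.893 to 1.92 CPM in the SPF zinc libraries. Both the SPF effect and the difference include that library.

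Enterocytes are also known to make metallothioneins, and their markers were measured in the same libraries. All 10 markers listed had counts in every library. Their summed level was 295 to 551 CPM on Milli-Q and 849 to 1588 CPM on zinc water in SPF mice, 276 to 327 and 310 to 472 CPM after antibiotics, and 408 to 964 and 429 to 1845 CPM in germ-free mice. Sis, the gene of the brush border enzyme sucrase-isomaltase, was called higher on zinc in each of the 3 contexts. Called on zinc were 1 of the 10 markers in SPF, 1 in antibiotics and 2 in germ-free mice, all of them higher. Of all genes, 0.138, 21.7 and 11.4% were called in these comparisons. The median log2 zinc effect of the 10 markers was 2.19 in SPF, 0.45 in antibiotics and 0.81 in germ-free mice. The ranges of the sum overlapped after antibiotics and in germ-free mice. The part of such cells in the values was not tested. In bulk samples fewer cells of a type and less RNA per cell cannot be told apart.

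Mtf1 (ENSMUSG00000028890, chromosome 4, 124695897 to 124743593, + strand), the gene of the zinc sensor itself, was not called in any comparison with TMM scaling. In SPF mice it stood at 11.5, 11.5 and 10.3 CPM on Milli-Q and at 10.8, 13.2 and 13.5 CPM on zinc water. After antibiotics it ranged from 8.40 to 11.5 CPM on Milli-Q and from 8.30 to 13.1 CPM on zinc water, and in germ-free mice from 7.92 to 11.1 and from 7.11 to 14.6 CPM. The 2 waters overlapped in each context. Its log2 fold change over the contexts was 0.13 ± 0.12 (SE), with a 95% interval of -0.12 to 0.38 and an adjusted p of 0.468 by edgeR. With library totals only the estimate was negative in SPF (-0.03) and antibiotics mice (-0.08). The antisense gene 1110065P20Rik overlaps an exon of Mtf1 and held 80 to 302 counts, against 54 to 255 for Mtf1, and 9.38% of the 50-base stretches of Mtf1 are shared with it.

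Slc30a1 encodes ZnT1, the exporter of the plasma membrane, and had the largest log2 zinc effect of the 6 exporters when averaged over the contexts. In SPF mice it stood at 5.72, 6.54 and 4.88 CPM on Milli-Q and at 7.42, 9.25 and 11.2 CPM on zinc water. After antibiotics it stood at 1.85, 2.56, 2.59 and 3.65 CPM on Milli-Q and at 8.49, 13.0, 8.49 and 4.70 CPM on zinc water. In germ-free mice it stood at 3.63, 2.22 and 4.39 CPM on Milli-Q and at 8.33, 9.07, 9.67 and 6.27 CPM on zinc water. With TMM scaling, zinc and Milli-Q libraries did not overlap in any context. The levels on zinc water then lay in one range, while those on Milli-Q water were highest in SPF mice. With library totals only, the waters overlapped in SPF mice, at 6.29 to 8.98 CPM on Milli-Q and 7.39 to 12.4 CPM on zinc water. Germ-free zinc libraries then held 4.35 to 7.54 CPM, and Slc30a1 was called lower than in SPF mice on zinc water (adjusted p 0.0395, edgeR). The log2 fold change was 1.70 ± 0.27 (SE) after antibiotics, a fold change of 3.26, with an adjusted p of 0.00114 by edgeR. In germ-free mice it was 1.26 ± 0.32 (SE), a fold change of 2.40 with an adjusted p of 0.0179 by edgeR. That call was lost on leaving out replicate 2 of the Milli-Q (0.131) or replicate 3 of the zinc group (0.0622). In SPF mice it was 0.70 ± 0.29 (SE), with a 95% interval of 0.09 to 1.31 and an adjusted p of 0.845 by edgeR, so it was not called there. Averaged over the contexts it was 1.22 ± 0.17 (SE, adjusted p 0.000143 by edgeR), a call that all 30 alternative settings kept.

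Slc30a2 encodes ZnT2, which loads zinc into vesicles and granules and is known from Paneth, pancreatic and mammary cells, and it was the most abundant of the exporters also per length of transcript. In SPF mice it stood at 66.4, 53.6 and 66.9 CPM on Milli-Q and at 106, 99.2 and 102 CPM on zinc water. After antibiotics it stood at 55.6, 71.0, 67.0 and 66.7 CPM on Milli-Q and at 107, 96.2, 85.6 and 55.8 CPM on zinc water. In germ-free mice it stood at 142, 147 and 135 CPM on Milli-Q and at 136, 117, 110 and 131 CPM on zinc water. The waters did not overlap in SPF mice, while antibiotics zinc replicate 4 fell among the Milli-Q libraries and the germ-free zinc libraries lay at or below the low end of those on Milli-Q water. The log2 zinc effect was 0.72 ± 0.17 (SE) in SPF mice, not called by edgeR (adjusted p 0.129) but called by DESeq2 (0.0173). It was 0.41 ± 0.15 (SE) after antibiotics, with an adjusted p of 0.0483 by edgeR, and this call was lost when any antibiotics library other than zinc replicate 4 was left out (up to 0.188). In germ-free mice it was -0.20 ± 0.16 (SE), with a 95% interval of -0.53 to 0.12. Over the contexts it was 0.31 ± 0.09 (SE, adjusted p 0.0201 by edgeR), but not called with library totals only (0.144) or without the 2 SPF libraries that stand apart (0.0679).

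Slc30a2 (ENSMUSG00000028836, chromosome 4, 134070234 to 134081795, + strand) overlaps Extl1 on the other strand, and 44.3% of the 50-base stretches of its transcript are shared with that gene. Extl1 held 30 to 298 counts a library, against 700 to 1870 for Slc30a2, and its log2 zinc effect over the contexts was of the opposite sign (-0.74 ± 0.15, SE). Between germ-free and SPF mice on Milli-Q water Extl1 was called higher (0.78 ± 0.27, SE, adjusted p 0.0357 by edgeR), the same direction as Slc30a2.

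**Figure D3:**
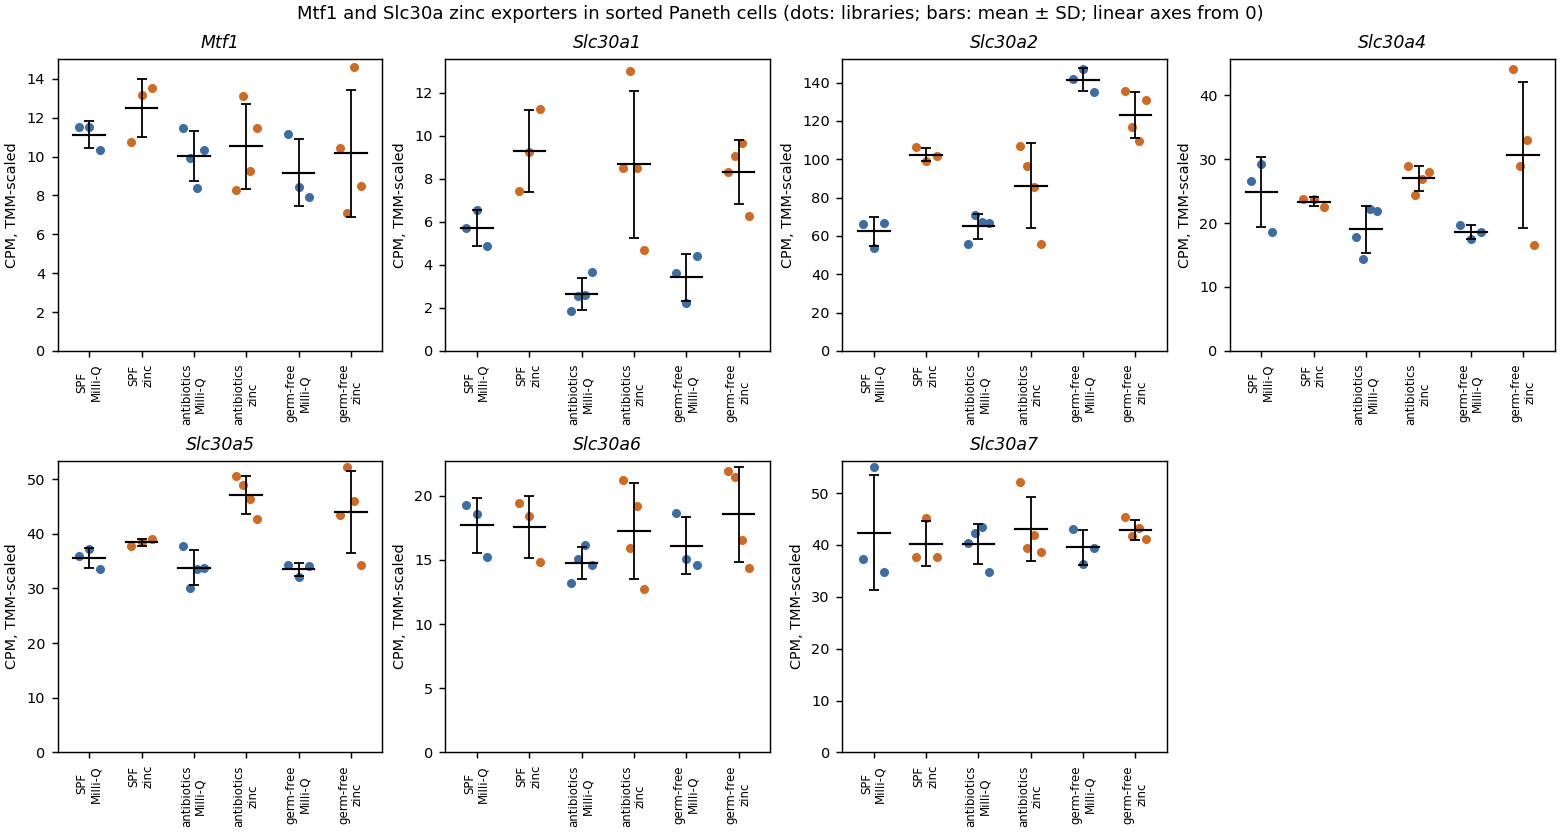
TMM-scaled CPM of Mtf1 and the 6 exporter genes in each library, on linear axes from 0, with blue dots for Milli-Q and orange dots for zinc water, and bars for the mean and SD of 3 or 4 libraries. Slc30a1 is higher in every zinc library than in the Milli-Q libraries of its context, and Slc30a2 is highest in germ-free Milli-Q libraries, at 135 to 147 CPM.

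Slc30a4 (ENSMUSG00000005802, chromosome 2, 122523004 to 122544845, - strand) encodes ZnT4, an exporter of intracellular vesicles. In SPF mice it stood at 26.6, 29.2 and 18.7 CPM on Milli-Q and at 23.7, 23.7 and 22.5 CPM on zinc water. After antibiotics it stood at 17.8, 14.4, 22.2 and 21.8 CPM on Milli-Q and at 28.9, 24.3, 26.8 and 28.0 CPM on zinc water. Germ-free libraries held 19.7, 17.5 and 18.6 CPM on Milli-Q and 44.2, 28.9, 33.0 and 16.6 CPM on zinc water. With TMM scaling, only after antibiotics did the waters not overlap, and germ-free zinc replicate 4 lay below all Milli-Q libraries of its context. The log2 zinc effect was -0.09 ± 0.23 (SE) in SPF mice, 0.50 ± 0.20 after antibiotics (adjusted p 0.0679, edgeR) and 0.71 ± 0.22 in germ-free mice (adjusted p 0.0448, edgeR). The germ-free call was lost when any germ-free library other than zinc replicate 4 was left out (up to 0.189). Over the contexts the effect was 0.37 ± 0.12 (SE, adjusted p 0.0357 by edgeR). That call was lost (up to 0.0775) without any 1 of 11 libraries, namely SPF Milli-Q replicate 3, each SPF zinc library, antibiotics Milli-Q replicates 1 and 2, replicate 1 of the antibiotics zinc group, replicates 2 and 3 of the germ-free Milli-Q group, and replicates 1 and 3 of the germ-free zinc group.

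Slc30a5 (ENSMUSG00000021629, chromosome 13, 100936795 to 100970006, - strand) encodes ZnT5, which brings zinc into the early secretory pathway in a complex with ZnT6. In SPF mice it stood at 35.9, 37.2 and 33.5 CPM on Milli-Q and at 37.8, 38.4 and 39.1 CPM on zinc water. After antibiotics it stood at 37.8, 30.1, 33.6 and 33.8 CPM on Milli-Q and at 50.5, 48.9, 46.3 and 42.6 CPM on zinc water. Germ-free libraries held 34.2, 32.1 and 34.1 CPM on Milli-Q and 43.4, 52.3, 46.0 and 34.2 CPM on zinc water. With TMM scaling the groups did not overlap in any of the 3 contexts, although the gap was under 1 CPM in SPF and germ-free mice. With library totals only, they overlapped in SPF mice and after antibiotics. The log2 zinc effect was 0.11 ± 0.13 (SE) in SPF mice, 0.48 ± 0.11 after antibiotics (adjusted p 0.00625, edgeR) and 0.39 ± 0.13 in germ-free mice (adjusted p 0.0472, edgeR). The antibiotics call held without any single library (up to 0.03), while the germ-free call was lost without any germ-free library other than zinc replicate 4 (up to 0.199). Over the contexts the effect was 0.33 ± 0.07 (SE, adjusted p 0.0044 by edgeR), and none of these 3 calls was made with library totals only (0.119 over the contexts).

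Slc30a6 and Slc30a7, the genes of ZnT6 and of the Golgi exporter ZnT7, were not called in any of the 11 comparisons with TMM scaling. Slc30a6 (ENSMUSG00000024069, chromosome 17, 74702579 to 74733299, + strand) ranged from 15.2 to 19.3 CPM on Milli-Q and from 14.8 to 19.4 CPM on zinc water in SPF mice, from 13.2 to 16.1 and 12.7 to 21.2 CPM after antibiotics, and from 14.6 to 18.7 and 14.4 to 21.9 CPM in germ-free mice. Slc30a7 (ENSMUSG00000054414, chromosome 3, 115732621 to 115801060, - strand) ranged from 34.8 to 55.0 and 37.7 to 45.2 CPM in SPF mice, from 34.7 to 43.5 and 38.7 to 52.0 CPM after antibiotics, and from 36.3 to 43.0 and 41.1 to 45.3 CPM in germ-free mice, in the same order of waters. All these ranges overlap between the waters. Of the 50-base stretches of Slc30a7, 44.9% are shared with a total of 6 other genes. Slc30a6 shares 0% of its stretches, but its exons overlap Nlrc4 on the other strand. Nlrc4 held 363 to 1178 counts a library, against 102 to 363 for Slc30a6. Over the contexts the 95% intervals of the log2 zinc effect were -0.07 to 0.35 for Slc30a6 and -0.13 to 0.22 for Slc30a7. The partner genes Slc30a5 and Slc30a6 therefore differed in their calls, but the difference between them was not tested.

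**Figure D4:**
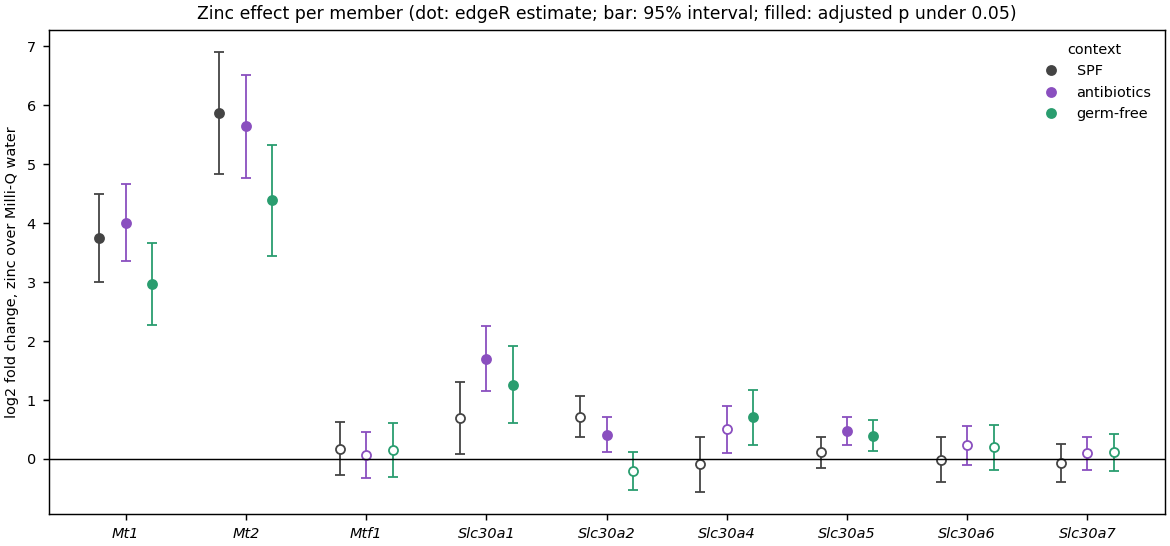
Log2 fold change of zinc over Milli-Q water for 9 of the genes in SPF, antibiotics and germ-free mice, with bars for the 95% interval and filled dots for an adjusted p under 0.05 (edgeR). Mt4 is left out because its fold change against libraries at 0 counts is a lower bound. Mt2 is farthest from 0 in each context (5.87, 5.65 and 4.39), and Mtf1, Slc30a6 and Slc30a7 straddle 0 throughout.

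On Milli-Q water, 3 of the 10 genes were called between germ-free and SPF mice, all higher in germ-free mice (Mt1, Mt2 and Slc30a2). With 24.2% of all genes called in this comparison, that share is near the background, and what follows describes the 3 genes singly. The log2 differences were 1.42 ± 0.33 for Mt1, 1.94 ± 0.44 for Mt2 and 1.18 ± 0.17 for Slc30a2 (SE), and edgeR gave adjusted p-values of 0.00384, 0.00305 and 6.68e-05. The 135 to 147 CPM of Slc30a2 in germ-free mice are beyond the 53.6 to 66.9 CPM of SPF and the 55.6 to 71.0 CPM of antibiotics libraries, and the groups did not overlap for Mt1 and Mt2 against SPF mice either. All 3 calls held without any single library. All 9 Paneth cell markers were also called higher in germ-free mice, with a median log2 difference of 1.48, and 5 of 8 enteroendocrine markers were called lower. The part of these shifts in the 3 genes was not tested. Slc30a1 was lower in every germ-free than in any SPF library on Milli-Q water (log2 -0.72 ± 0.33, SE, adjusted p 0.11, edgeR) but was not called.

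How the libraries are scaled decides these 3 calls. With library totals only, without TMM factors, the median over all genes moved to -0.99 log2 units and 71.4% of genes were called. Mt1, Mt2 and Slc30a2 then stood at 0.48 ± 0.37, 0.97 ± 0.47 and 0.23 ± 0.19 (SE, adjusted p 0.231, 0.0646 and 0.285, edgeR) and were not called. The 6 genes Mtf1, Slc30a1, Slc30a4, Slc30a5, Slc30a6 and Slc30a7 were called lower instead, between -1.05 and -1.68. Relative to the median of all genes, Mt1, Mt2 and Slc30a2 stood at 1.47, 1.96 and 1.22 and Slc30a1 at -0.69. Which scaling matches the RNA content of these cells was not tested.

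**Figure D5:**
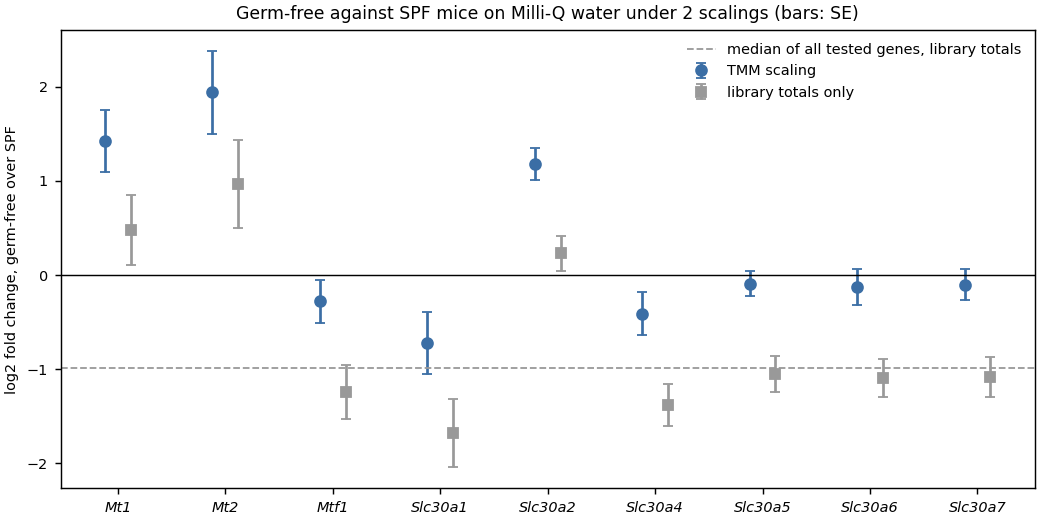
Log2 fold change of germ-free over SPF mice on Milli-Q water for 9 of the genes with TMM scaling (circles) and with library totals only (squares), with bars for the SE and a dashed line at the median of all genes under library totals (-0.99). With library totals every gene lies about 1 log2 unit lower than with TMM scaling.

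After antibiotics the genes were not called against SPF mice on either water. On Milli-Q water 0 of the 10 genes were called by edgeR (0.199% of all genes) and 0 by DESeq2, and 1 had an unadjusted p under 0.05. That gene was Slc30a1, at 1.85 to 3.65 CPM after antibiotics against 4.88 to 6.54 CPM in SPF mice (log2 -1.10 ± 0.28, SE, adjusted p 0.138, edgeR). Mt1 and Mt2 stood at 0.26 ± 0.31 and 0.82 ± 0.41 log2 units (SE) above SPF mice, neither of them called. On zinc water 0 of the 10 genes were called after antibiotics against SPF mice (8.97% of all genes) and 0 in germ-free against SPF mice (5.85%), by edgeR and by DESeq2 alike, with 1 gene at an unadjusted p under 0.05 in each. Without germ-free zinc replicate 4, 1 gene (Slc30a4) was called between germ-free and SPF mice, with 1573 of 13057 genes called in all. Under scaling by library totals alone, 5 were called lower in germ-free mice on zinc water (Mtf1, Slc30a1, Slc30a5, Slc30a6 and Slc30a7), around a median of all genes of -0.61. These context comparisons share the SPF libraries of their water. Between antibiotics and SPF mice on zinc water, 9 of 10 enterocyte markers were called lower (median log2 -2.69) and 4 of 8 goblet markers higher. The part of these shifts in the values of the 10 genes was not tested.

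The zinc effect itself did not differ between contexts past the threshold. For antibiotics minus SPF 0 of the 10 genes were called (0% of all genes), with 2 at an unadjusted p under 0.05. For germ-free minus SPF 0 were called (0% of all genes), with 3 at an unadjusted p under 0.05. For germ-free minus antibiotics 0 were called (0.207% of all genes), again with 3, and DESeq2 called 0 in all of them. The widest of these differences in units of its error was that of Slc30a2 between germ-free and SPF mice (-0.92 ± 0.23, SE, unadjusted p 0.00057, adjusted p 0.211, edgeR). Without germ-free zinc replicate 4 it passed the threshold (0.0243), as did Slc30a4, and the count for germ-free minus SPF was 2, while 767 of 13057 genes were then called in all. Slc30a1 differed by 1.00 ± 0.40 (SE, adjusted p 0.196, edgeR) between antibiotics and SPF mice, and Mt2 by -1.48 ± 0.57 (SE, adjusted p 0.285, edgeR) between germ-free and SPF mice.

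Per kilobase of canonical transcript, which allows levels to be compared between genes, SPF mice on Milli-Q water had most of Mt1 (48.7 ± 13.4 CPM per kilobase, SD, n = 3), then Slc30a2 (18.1 ± 2.19) and Mt2 (11.3 ± 4.75). Slc30a6 (8.21 ± 1.00), Slc30a5 (6.36 ± 0.33), Slc30a7 (4.69 ± 1.23) and Slc30a4 (4.32 ± 0.95) followed. The canonical transcript of Slc30a6 has 2155 bases and its longest has 4225, so its level per kilobase depends on which is used. Mtf1 (1.46 ± 0.09) and Slc30a1 (1.08 ± 0.16) were lowest of the genes with counts. Between neighbours in this order the libraries overlapped for Mt2 and Slc30a6, for Slc30a5 and Slc30a7 and for Slc30a7 and Slc30a4, and were apart elsewhere. On zinc water Mt2 (661 ± 108) and Mt1 (656 ± 56.2) overlapped at the top in SPF mice, and Slc30a2 (29.8 ± 1.04) came next. Slc30a1 (1.76 ± 0.36) and Mtf1 (1.64 ± 0.20) then overlapped at the bottom. In germ-free mice on Milli-Q water Mt2 (43.6 ± 26.0 CPM per kilobase, SD, n = 3) and Slc30a2 (41.2 ± 1.77) overlapped, both below Mt1 (131 ± 39.8).

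The other genes of zinc handling were taken from a list of 19, of which 16 were tested. In SPF mice 1 was called lower on zinc, after antibiotics 2 were called higher and 3 lower, in germ-free mice 1 higher and 1 lower, and over the contexts 1 higher and 2 lower. The 1, 5, 2 and 3 of 16 called stand beside 0.138, 21.7, 11.4 and 21.9% of all genes, so that in the last 2 comparisons the share called in the list was near or below that over all genes. The median log2 fold change of the 16 over the contexts was 0.04, beside -0.01 for all genes. Slc39a4, the gene of the zinc importer ZIP4 of the apical membrane, fell over the contexts by 1.04 ± 0.13 on the log2 scale (SE, adjusted p 4.97e-05 by edgeR), from 26.6 ± 8.64 to 10.2 ± 4.92 CPM in SPF mice (SD, n = 3 each). It was also called lower in each context. Slc39a13, the gene of ZIP13 in the early secretory pathway, fell by 0.43 ± 0.12 on the log2 scale over the contexts (SE, adjusted p 0.0147 by edgeR). Slc39a9, the gene of ZIP9, rose by 0.23 ± 0.08 (SE, adjusted p 0.0361 by edgeR).

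Patterns like those of these genes were ranked over the 21 libraries among 9346 genes with a mean of at least 5 CPM, by Pearson correlation of log2 CPM. Closest to Mt2 were Aldh1a1 (0.87), Rgcc (0.85) and Acsl5 (0.82). Closest to Slc30a1 were Exoc4 (0.87), Pgm2 (0.84) and Elf1 (0.83). Closest to Mtf1 were Ptprj (0.74), Lrrc58 (0.73) and Usp32 (0.73). Among the 10 genes, Slc30a1 correlated with Mt2 at 0.73 and with Slc30a5 at 0.72, and Mtf1 with Mt2 at 0.12. The libraries share their water, context and scaling, so these values describe likeness only.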

How the data were processed

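Paneth cells were sorted by FACS, and stranded mRNA libraries were made from their total RNA. The authors deposited raw counts for each Ensembl gene in 1 table, 1 column to a library (21 libraries, 0 columns unmatched). The submitters' processing notes name the build mm39, FastQC 0.12.0, STAR 2.7.0a and DESeq2. For the counting, neither the tool nor its treatment of strand and of multi-mapped reads was found in the sources used here. Of 55414 identifiers, 54749 matched GENCODE M39, and the other 665 held 0.0164% of counts.

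The quasi-likelihood F-test of edgeR 4.0.16 (limma 3.58.1, R 4.3.3) was run on the counts with filterByExpr and TMM scaling, in a single model with 6 group means and 11 comparisons. Adjustment over the 13070 genes was by Benjamini-Hochberg, at a threshold of 0.05. The SE is the size of the log2 fold change divided by the root of F. CPM is scaled by TMM factors, log2 CPM used a prior count of 2, and the floor for a group at 0 was 3 counts over the group. Levels per kilobase used canonical transcripts.

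The genes named are the 10 members, the genes of the zinc-handling list of 19 that were called over the contexts, and the 3 genes closest in pattern to Mt2, to Slc30a1 and to Mtf1. Members and lists were chosen with earlier results of these data known. Genes named beside these (Extl1, Gm45774, 1110065P20Rik, Nlrc4, Mt3, Slc30a10, Xist) were picked after their values were seen. The labelled cell type was checked with marker lists. Called over the contexts, where 21.9% of all genes were called, were 5 of 10 enterocyte markers, all higher on zinc, 2 of 9 Paneth markers (Pla2g2a and Nupr1) and 3 of 8 goblet markers (Muc2, Tff3 and Spdef), all lower, and 3 of 7 markers of stem and cycling cells, 2 of them higher. Among markers of enteroendocrine (8 tested), tuft (5), immune (2) and stromal cells (1), edgeR called 0.

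As alternatives the scaling was replaced by DESeq2-type size factors, by library totals only or by TMM factors without Defa genes. The filter was dropped or set to 10 counts in 10 libraries, DESeq2 1.42.0 was run, only the groups compared were fitted, the number of the replicate was added as a block, and libraries were left out in turn. Leaving out the pair of SPF libraries that stand apart was added after seeing the data. Replicates of a group differed by more than sampling noise in all pairs (chi-square per gene at least 8.46). The floors of Mt4 cover counting error only, while the 95% intervals of log2 fold changes come from the edgeR fit and hold the spread between libraries. Python 3.11.15 and matplotlib 3.10.9 drew the figures.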

Additional observations from a re-analysis of the deposited data

Results flagged for a closer look

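Among 30 sets of 4 libraries (10 genes in the 3 groups of 4), 1 library lay farther from the rest than Dixon's 95% limit. Mt4 stood at 0.192 CPM in antibiotics Milli-Q replicate 3, from 4 counts, while the other 3 libraries of that group held 0. The limit flags about 1 in 20 sets by chance when values are normally distributed. That rate does not apply here. With the rest of the group at 0, the gap equals the whole range, and any count above 0 would be flagged.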

How the results depend on the processing

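The calls of Mt1, Mt2 and Slc30a1 over the contexts, of Mt1 and Mt2 in each context and of Slc30a1 after antibiotics held under all alternatives. With only the groups compared in the fit, 2 of the 10 genes were called on zinc in germ-free mice (Mt1 and Mt2), where 3 of 11448 genes were called in all. With library totals only, 4 were called over the contexts (Mt1, Mt2, Mt4 and Slc30a1), 6 between germ-free and SPF mice on Milli-Q water and 5 on zinc water. Without a filter on low counts, 2 were called between antibiotics and SPF mice on Milli-Q (Mt2 and Slc30a1) and 2 on zinc water (Mt1 and Mt2), 1 between germ-free and SPF mice on zinc water (Mt1), and the zinc effect differed for 3 between germ-free and SPF mice (Mt2, Slc30a2 and Slc30a4) and for 2 between germ-free and antibiotics mice (Mt1 and Mt2). The cause was not tested. That setting also called 269 of 24548 genes on zinc in SPF mice, against 18 in the report and 37 by DESeq2.

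With single libraries left out, the number of the 10 genes called was 2 to 3 in SPF, 5 to 6 in antibiotics and 2 to 6 in germ-free mice, 6 to 7 over the contexts, 0 to 1 between germ-free and SPF mice on zinc water, and 0 to 2 for the zinc effect in germ-free minus SPF mice. With the replicate block, 2 were called on zinc in SPF mice (Mt4 was lost) and 5 after antibiotics (Slc30a2 was lost), and no other count changed. These numbers are those of the sample titles. Of same-numbered pairs from different groups, 7 of 48 correlated above 0.1 (range -0.39 to 0.23), against 26 of 135 other pairs (range -0.28 to 0.38). The table columns number the germ-free Milli-Q libraries otherwise. With those numbers, tried after seeing the data, 6 of 46 same-numbered pairs correlated above 0.1, against 27 of 137 other pairs. The block then gave the same counts but 4 in germ-free mice (Slc30a4 and Slc30a5 were lost). By neither numbering were same-numbered pairs above 0.1 more often than other pairs. Whether samples of the same number were handled together cannot be told from these correlations.

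The fold changes listed next changed sign and belong to genes not called in those comparisons in the report. Scaled by library totals, Mt2 (-0.10), Mt4 (-0.44), Slc30a2 (-0.36), Slc30a4 (-0.29), Slc30a5 (-0.43), Slc30a6 (-0.57) and Slc30a7 (-0.54) were negative between germ-free and SPF mice on zinc water, and Slc30a5, Slc30a6 and Slc30a7 were then called lower. With library totals only, the zinc effect was -0.03 for Mtf1 and -0.09 for Slc30a5 in SPF mice, -0.08 for Mtf1 and -0.07 for Slc30a7 after antibiotics, and -0.04 for Slc30a7 over the contexts. Without the pair of SPF libraries that stand apart, it was 0.03 for Slc30a4 and 0.21 for Slc30a7 in SPF mice, and Slc30a2 stood at -0.04 after antibiotics against SPF mice on Milli-Q water. With single libraries left out, the zinc effect in SPF mice ranged from -0.24 to 0.05 for Slc30a4, -0.09 to 0.10 for Slc30a6 and -0.18 to 0.16 for Slc30a7. It ranged from -0.04 to 0.17 for Mtf1 and -0.01 to 0.15 for Slc30a7 after antibiotics, and from -0.09 to 0.31 for Mtf1 in germ-free mice. Slc30a2 after antibiotics against SPF mice on Milli-Q water ranged from -0.04 to 0.13, and the antibiotics minus SPF difference in the zinc effect on Mt2 from -0.52 to 0.07. Counts of 0 to 48 a library limit what can be said of Mt4.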
